A study of Sus scrofa with 6 samples.

Results

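The genes described here carry out or supply progesterone synthesis, and 9 were chosen by name for their known place in that pathway: SCARB1, STAR, STARD3, TSPO, CYP11A1, FDX1, FDXR, HSD3B1 and POR. In the gene table, 6 of the 9 had a line among 19442 genes, HSD3B1 being written there as HSD3B. CYP11A1 and POR were represented only by circular RNAs (circRNAs), and FDX1, which was found under no line used, was not analysed here. The circRNA table held 8 circRNAs assigned to 4 of these genes, among 9362 in all. RNA was taken from pig mural granulosa cells of antral follicles that were either in advanced atresia (AA) or healthy (HA), with 3 libraries of each. Follicles came from gilts in the follicular phase and carried no treatment or genetic change, and each library was made from a pool of 10 follicles sorted by appearance. AA follicles had an opaque, poorly vascularized wall and HA follicles a well-vascularized wall with clear fluid. In both groups the cells scraped from the wall were joined with the follicular fluid, so that detached apoptotic cells entered the AA pools.

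Granulosa cells are the somatic cells that line the follicle, and before ovulation they turn androgens from the theca into oestradiol. As the follicle matures they also acquire the machinery that makes progesterone, which luteal cells then run at full capacity. Cholesterol enters from lipoproteins through the receptor SCARB1. STAR, acutely induced by luteinizing hormone through cAMP, moves it to the inner mitochondrial membrane. There CYP11A1 cleaves the cholesterol side chain to give pregnenolone, with electrons that pass from NADPH through FDXR and FDX1. HSD3B then converts pregnenolone to progesterone. STARD3 and TSPO are further cholesterol-handling proteins of late endosomes and of the outer mitochondrial membrane, and POR hands electrons to the microsomal P450 enzymes that act on later steroids.

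mRNA levels are given in FPKM, the fragments assigned to a gene relative to transcript length and to all mapped fragments, so that levels may be compared between genes. The authors' scaled gene counts summed to between 12874895 and 14036454 in AA libraries and between 13523413 and 14336027 in HA libraries. These counts are a normalized signal, so their sums do not show depth. Relative depth before scaling ran from 0.695 in HA library 1 to 1 in AA library 1. The replicate error below is the spread between follicle pools, and the part of depth in it was not tested. Of 9 granulosa markers, 6 had a line, and these summed to 1971 to 4930 FPKM in AA and 4027 to 9452 FPKM in HA. INHA and INHBA gave most of each sum, whereas GATM was at 1.60 to 4.51 FPKM. Macrophage and leukocyte markers, 9 in number, summed to 100.3 to 343 FPKM in AA and 12.4 to 35.6 FPKM in HA. Of those 9, 7 passed the low-value filter and all 7 were higher in AA at an unadjusted p of at most 0.05, while CD163 was listed at 0 in every library. Endothelial markers summed to 7.76 to 16.6 FPKM in AA and 3.36 to 6.04 FPKM in HA, and fibroblast and smooth muscle markers to 37.9 to 99.5 FPKM in AA and 19.4 to 32.1 FPKM in HA. Since these are bulk samples, fewer cells of a type and less RNA per cell cannot be told apart, and the part of these other cell types in the results below was not tested. HA library 1 stood apart from the other HA libraries in STAR, so each of the 6 pathway genes is also given without it.

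Genes were tested if 3 or more libraries held them at 1 FPKM or above, which left 11001, and of these 0 genes (0% in either direction) passed a Benjamini-Hochberg adjusted p of 0.05 in the limma comparison of AA with HA. At an unadjusted p of at most 0.05, 1043 genes (9.48%) were higher and 675 (6.14%) lower in AA. These counts moved with the processing, to 908 higher and 839 lower under quantile normalization, and the lower count ran from 331 without HA library 2 to 1229 without AA library 3. When libraries that carry the same date in their labels were treated as blocks, 13 genes passed the adjusted threshold, none of them one of the pathway genes. Leaving out AA library 3 gave 97 calls, AA library 2 gave 6 and AA library 1 gave 2, again without a pathway gene. All 6 pathway genes with a line entered this test. At an unadjusted p of at most 0.05 the count of pathway genes was 0, with 3 estimated higher and 3 lower in AA. Their median log2 difference (AA minus HA) was -0.24, beside 0.01 over all genes tested. Without HA library 1, SCARB1, STAR and FDXR reached that unadjusted p, all lower in AA, where 445 of 10866 genes (4.10%) were lower and 874 (8.04%) higher. The median of the pathway genes was then -0.40, beside -0.01 over all genes. HA library 1 was left out for its STAR level, and it was the lowest HA library for all 3 genes. Leaving it out moved each of them toward lower values in AA, so these counts are a description and no support.

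SCARB1 (ENSSSCG00000009759, chromosome 14, 30050781 to 30093798, plus strand, Sscrofa10.2) takes up cholesteryl esters from high-density lipoprotein. Its mRNA was at 90.0, 48.6 and 72.6 FPKM in AA libraries 1, 2 and 3, against 79.3, 118 and 121 FPKM in HA libraries 1, 2 and 3. The groups overlapped, because AA library 1 lay above HA library 1, and the remaining AA libraries lay below every HA library. Levels averaged 70.4 ± 20.8 FPKM in AA and 106 ± 23.2 FPKM in HA (SD, n = 3 each). The log2 difference was -0.60 (SE 0.26; limma, unadjusted p = 0.0504, Benjamini-Hochberg adjusted p = 0.320). Without HA library 1 it was -0.80, with a 95% confidence interval of -1.43 to -0.17 and an adjusted p of 0.282 (limma).

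STAR (ENSSSCG00000026109, chromosome 15, 55502052 to 55509990, plus strand), the transport protein on which acute steroid output depends, varied more than any other of these genes. It was at 1.36, 0.825 and 1.21 FPKM in AA libraries, against 0.258, 28.3 and 19.7 FPKM in HA libraries. AA libraries were thus close together, whereas the HA libraries split: HA libraries 2 and 3 were far above every AA library, and HA library 1 was below every AA library. In the authors' scaled counts the same gene had 55.6, 33.9 and 49.7 in AA and 10.7, 1172 and 808 in HA. STAR in HA library 2 was 109.6 times and in HA library 3 76.2 times its level in HA library 1. STAR averaged 1.13 ± 0.276 FPKM in AA and 16.1 ± 14.4 FPKM in HA (SD, n = 3 each).

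The log2(FPKM + 1) difference for STAR was -2.11 (SE 1.04, 95% confidence interval -4.48 to 0.27), which did not pass the test (limma, unadjusted p = 0.0750, adjusted p = 0.372). Without HA library 1 the difference was -3.54 (SE 0.32, interval -4.28 to -2.80), with an unadjusted p of 6.03e-06 and an adjusted p of 0.0627 (limma). That value used 2 HA libraries and was obtained after leaving out the library in which STAR was lowest, so it describes how far 1 library moved the result. The mean of HA libraries 2 and 3 was 24.0 FPKM, 21.2 times the AA mean, against 14.2 times with HA library 1 included. By date label, AA library 1 exceeded its HA partner of the same date, and AA libraries 2 and 3 were below theirs.

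**Figure D1:**
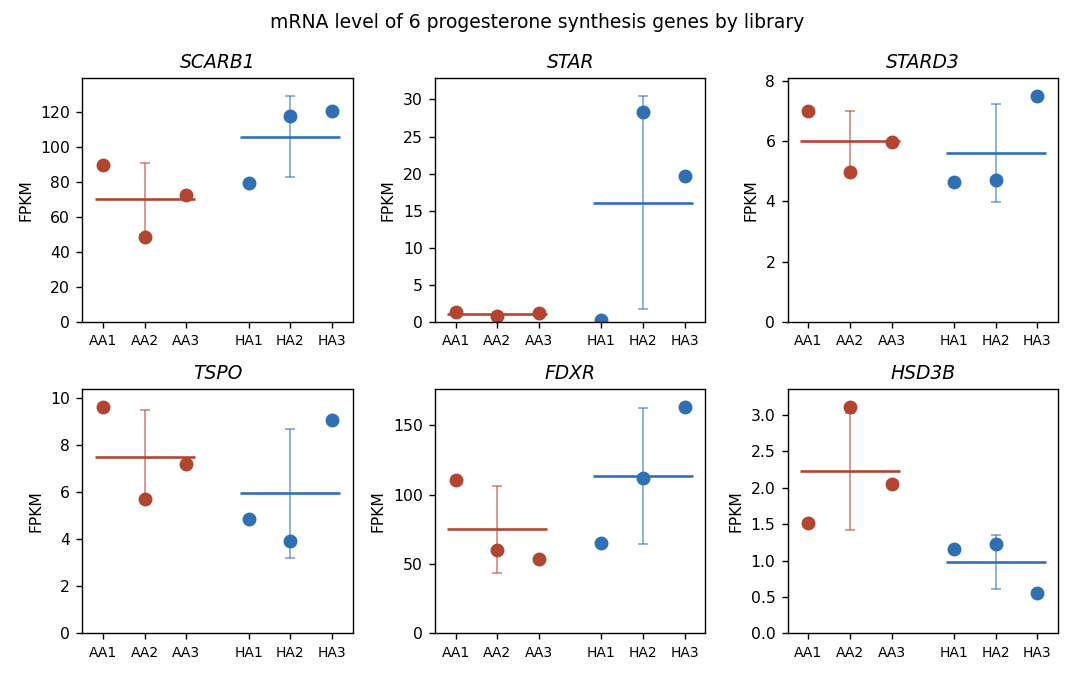
Level in FPKM (linear axes starting at 0, one panel per gene) of the 6 progesterone synthesis genes with a line in the gene table, in 3 AA libraries on the left and 3 HA libraries on the right; points are single libraries numbered by replicate, and bars give the mean and SD. STAR shows 1 HA library at 0.258 FPKM below all AA libraries and the others at 28.3 and 19.7 FPKM, and HSD3B is the only panel in which the groups do not overlap.

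The low STAR level of HA library 1 was not matched by 3 other genes of granulosa steroid production that were lower in AA. CYP19A1, aromatase, the enzyme of oestradiol synthesis, was at 224, 128 and 307 FPKM in AA, against 744, 1052 and 802 FPKM in HA. LHCGR, the receptor for luteinizing hormone, was at 65.3, 21.2 and 58.9 FPKM in AA and at 172, 286 and 250.0 FPKM in HA. NR5A2, a nuclear receptor that drives steroid enzyme promoters, was at 213, 130.0 and 337 FPKM in AA and at 457, 494 and 470 FPKM in HA. In all 3 genes HA library 1 was the lowest HA library but lay above every AA library. Since the groups did not overlap for these 3, HA library 1 could only lie on the HA side. FOXL2 and INHBA, from the granulosa marker list, had HA library 1 within the AA range and HA libraries 2 and 3 above it. FOXL2 was at 52.9, 32.9 and 43.6 FPKM in AA and at 34.2, 60.3 and 76.0 FPKM in HA. INHBA was at 1673, 883 and 1195 FPKM in AA and at 1460, 2068 and 3126 FPKM in HA. For FSHR, the receptor for follicle-stimulating hormone, which was higher in AA, HA library 1 (51.0 FPKM) was the HA library nearest to AA but lay below every AA library. Their log2 differences were -2.05 for CYP19A1 (limma adjusted p = 0.0568), -2.38 for LHCGR (adjusted p = 0.0594) and -1.16 for NR5A2 (adjusted p = 0.139), and none passed the adjusted threshold.

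Over the 11001 genes tested, 322 (2.93%) had HA library 1 more than 1 log2 unit of FPKM + 1 below the lower of the other 2 HA libraries. The gap for STAR was 4.04 log2 units, and 2 genes including STAR had one as large. These counts describe the spread among HA pools and carry no test.

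**Figure D2:**
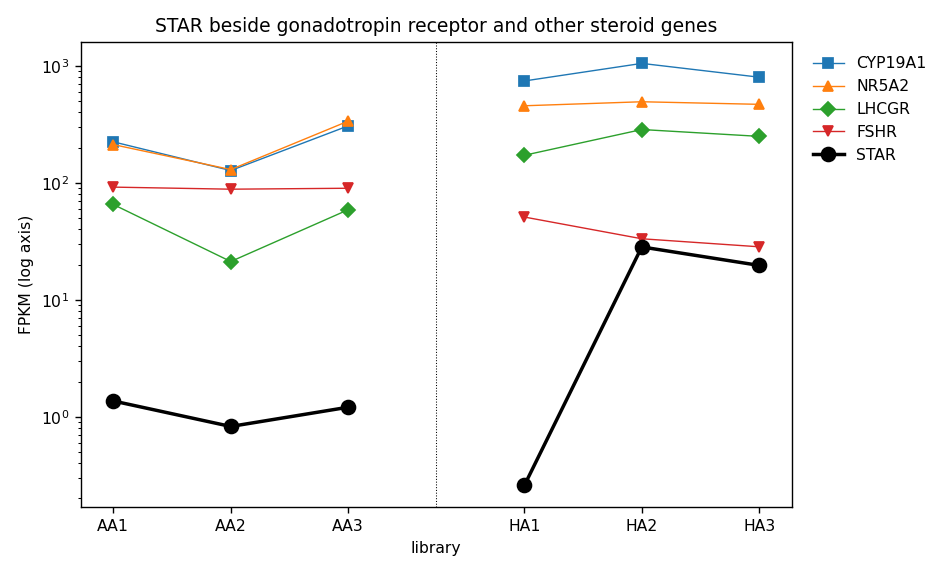
Level in FPKM (log axis) of STAR and of the comparison genes CYP19A1, LHCGR, NR5A2 and FSHR in each library, AA on the left and HA on the right; lines join the points of 1 gene within a group and stand for no order. In HA library 1, STAR (0.258 FPKM) lies below all AA libraries, whereas CYP19A1, LHCGR and NR5A2 lie above them. For these last 3 genes the groups did not overlap, so HA library 1 could only lie on the HA side.

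For STARD3 and TSPO, the other cholesterol-handling proteins, AA and HA libraries overlapped and the differences were within the replicate spread. STARD3 (ENSSSCG00000017499, chromosome 12, 23079490 to 23106173, plus strand), a late endosomal protein with a domain related to that of STAR, was at 7.00, 4.97 and 5.98 FPKM in AA and 4.63, 4.71 and 7.49 FPKM in HA. The highest single value was in HA library 3 and the 2 lowest in the other HA libraries, and the groups overlapped. Its log2 difference was 0.10 with a 95% confidence interval of -0.53 to 0.73 (limma adjusted p = 0.900), and -0.01 without HA library 1. The sign also turned without AA library 1 and under quantile normalization, so no direction can be given for STARD3.

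TSPO (ENSSSCG00000000033, chromosome 5, 3145792 to 3157669, minus strand) was at 9.60, 5.70 and 7.19 FPKM in AA and 4.86, 3.91 and 9.06 FPKM in HA. Only HA library 3 overlapped the AA range. The log2 difference was 0.34 (SE 0.33, interval -0.43 to 1.10, limma adjusted p = 0.666), and 0.25 without HA library 1. TSPO is also expressed by macrophages, whose markers were higher in AA as given above. AA library 2, with the highest marker sum (343 FPKM), had the lowest TSPO of the AA libraries. HA library 3, with the lowest marker sum (12.4 FPKM), had the highest TSPO of the HA libraries. The part of macrophages in the TSPO levels was not tested.

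The ratio of STAR to STARD3 within a library does not depend on how libraries were scaled to each other. It was 0.195, 0.166 and 0.202 in AA, against 0.0558, 6.01 and 2.63 in HA. AA libraries lay between HA library 1 and the other HA libraries. On the log2 scale the ratio differed by -2.36 (AA minus HA; two-sided exact permutation p = 0.4, n = 3 each, where the smallest p this design allows is 0.1).

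Of the side chain cleavage system, only FDXR had an mRNA line (ENSSSCG00000017227, chromosome 12, 6362554 to 6373263, plus strand). FDXR, ferredoxin reductase, takes electrons from NADPH and passes them on toward CYP11A1. It was at 111, 60.2 and 53.7 FPKM in AA, against 65.0, 112 and 163 FPKM in HA. AA library 1 and HA library 1 each fell within the range of the opposite group. FDXR averaged 74.9 ± 31.3 FPKM in AA and 113 ± 48.9 FPKM in HA (SD, n = 3 each). The log2 difference was -0.57 (SE 0.37, interval -1.42 to 0.29, limma adjusted p = 0.513), and -0.91 without HA library 1 (interval -1.70 to -0.13, adjusted p = 0.321).

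HSD3B (ENSSSCG00000006719, chromosome 4, 111555566 to 111564192, minus strand), the enzyme that makes progesterone itself, was the one gene of the pathway whose groups did not overlap. It was at 1.52, 3.11 and 2.05 FPKM in AA, against 1.16, 1.23 and 0.557 FPKM in HA. Every AA library was above every HA library, an arrangement that 11.9% of all genes tested showed, with 9.10% showing the opposite one. All values were low, with 36.7, 81.7 and 50.7 scaled counts in AA and 28.8, 32.4 and 14.5 in HA. Levels averaged 2.23 ± 0.808 FPKM in AA and 0.985 ± 0.373 FPKM in HA (SD, n = 3 each), 2.26 times as much in AA.

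The log2(FPKM + 1) difference for HSD3B was 0.69 (SE 0.33, interval -0.07 to 1.45) and did not pass the test (limma, unadjusted p = 0.0707, adjusted p = 0.365). With a pseudocount of 0.1 in place of 1 it was 1.11, and without HA library 1 it was 0.76 (adjusted p = 0.507, limma). AA library 2, the highest for HSD3B, was also the highest for the summed macrophage and leukocyte markers (343 FPKM), and HA library 3 was the lowest for both (12.4 FPKM for the markers). Like HSD3B, these marker sums were higher in every AA library than in every HA library. The part of such cells in the HSD3B levels was not tested. The table names the gene HSD3B without a number, and how reads of closely related copies were shared was not tested.

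**Figure D3:**
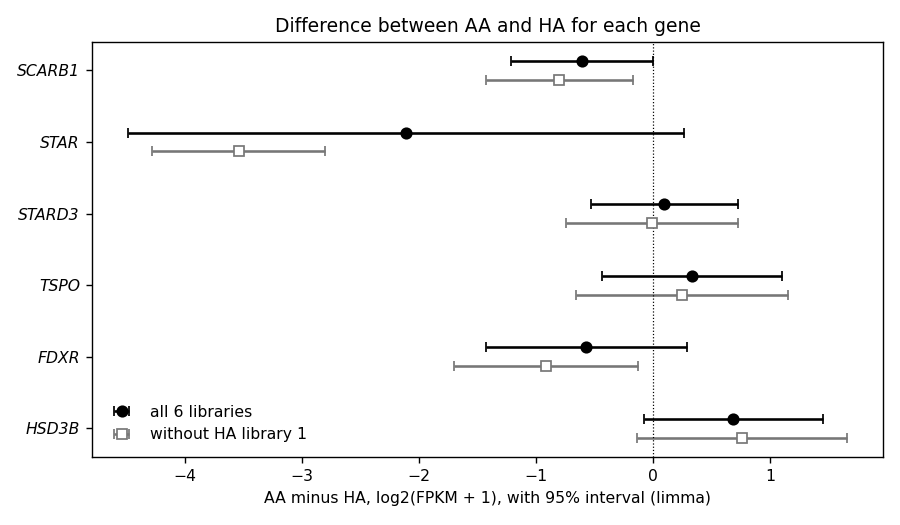
Log2 difference of FPKM + 1 (AA minus HA, horizontal axis) for each pathway gene, with 95% confidence intervals from limma, over all 6 libraries and without HA library 1; the vertical line marks no difference. The estimate for STAR is -3.54 with a narrow interval without HA library 1, against -2.11 with an interval across 0 over all libraries, and the intervals of STARD3, TSPO and HSD3B cross 0 in both.

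Set in order of level, SCARB1 and FDXR were the most abundant of the 6 mRNAs and did not differ from each other beyond their spread, SCARB1 being above FDXR in 3 of 6 libraries. Both were above STAR, STARD3, TSPO and HSD3B in 6 of 6 libraries. TSPO was above STARD3 in 5 of 6 libraries, and both were above HSD3B in 6 of 6. STAR had no fixed place in this order, since it was above STARD3, TSPO and HSD3B in HA libraries 2 and 3 only.

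The 5 genes whose log2(FPKM + 1) levels followed STAR most closely over the 6 libraries were PCSK5 (Pearson r = 0.975), LUC7L3 (0.974), TMEM231 (0.970), CHAC1 (0.966) and ENSSSCG00000004350 (0.962). CHAC1, a glutathione-degrading enzyme induced in the response to unfolded protein, was at 3.93, 2.34 and 1.22 FPKM in AA, against 1.17, 22.6 and 30.4 FPKM in HA. For HSD3B they were AP1S2 (0.995), KDM7A (0.994), TP53INP1 (0.993), S100A10 (0.992) and ABCA1 (0.991). ABCA1, a pump that exports cellular cholesterol, was at 13.8, 34.7 and 23.3 FPKM in AA, against 9.62, 8.95 and 3.77 FPKM in HA on that line. With 6 libraries that share 2 group levels, such high correlations are a description and were not tested.

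circRNAs are closed loops made when a downstream splice donor joins an upstream acceptor, and they are counted by the reads that cross this back-splice junction. The 8 circRNAs of SCARB1, FDXR, CYP11A1 and POR held 59 of 183089 junction reads (0.0322%), 34 of them in AA and 25 in HA. Library totals ran from 25838 to 34414 in AA and from 29534 to 32608 in HA. Their median was 3.5 reads over all libraries, against 6 for all circRNAs. Of the 8, 6 were seen in a single library, as were 77.2% of all circRNAs. No library is listed with a single junction read of a circRNA, so a value of 0 stands for fewer than 2 reads and not for absence. Of the values above 0, 70.0% over all circRNAs and 9 of 12 for these 8 were even, and whether both mates of a read pair were counted was not tested, so junction reads may not be independent molecules.

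POR, the reductase of microsomal P450 enzymes, had 4 circRNAs with 31 reads, and 17.0% of the 3514 host genes had 4 or more. circ_POR-1 (367 nt, sense overlapping, on an unplaced scaffold at 16864 to 17230) had 0, 0 and 0 reads in AA libraries, against 5, 4 and 2 reads in HA libraries. It was thus listed in every HA pool and in no AA pool, and the share of all circRNAs with this arrangement is not given here. It reached the edgeR comparison, which asked for at least 2 reads in 3 libraries, only through its HA libraries, so a difference was built into its entry and its p is not given. Of the 1014 circRNAs compared, 1 (0.0986%) was called lower and 0 (0%) higher in AA. The call asked for a Benjamini-Hochberg adjusted p of 0.05 and a fold change of 2, and no POR circRNA was called here. The paper, by its own test, lists a sense overlapping POR circRNA of 367 nt on the same scaffold as lower in AA.

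circ_POR-2 (348 nt of exon, 16864 to 29269) starts at the same base as circ_POR-1. It had 0, 0 and 8 reads in AA, against 0, 4 and 4 reads in HA. Its 8 AA reads all came from library 3, the groups overlapped, and no direction could be given (edgeR log2 difference 0.26, adjusted p = 0.998). circ_POR-3 (853 nt, sense overlapping, 44213 to 45065) had 2 reads in HA library 3. circ_POR-4 (458 nt, intronic, 44608 to 45065), which ends at the same base, had 2 reads in AA library 1.

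SCARB1 gave the circRNA with the most reads of the 8. circ_SCARB1-1 (1643 nt, intronic, chromosome 14, 30051536 to 30053178) had 0, 19 and 0 reads in AA libraries, against 0, 0 and 0 reads in HA libraries. All 19 reads thus came from AA library 2, in which the SCARB1 mRNA was at its lowest (48.6 FPKM), and with 1 library it was not tested. circ_SCARB1-2 (583 nt of exon, 30058998 to 30067011) had 2 reads in HA library 2. circ_FDXR-1 (533 nt of exon, chromosome 12, 6363663 to 6370011) had 2 reads in HA library 3, the library with the highest FDXR mRNA.

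CYP11A1, the side chain cleavage enzyme, was seen only as circ_CYP11A1-1 (529 nt, on an unplaced scaffold at 116253 to 116781), which the table classes as antisense to the gene. It had 0, 0 and 5 reads in AA, against 0, 0 and 0 reads in HA. Being antisense and confined to AA library 3, these 5 reads give no level for CYP11A1 itself. STAR, STARD3, TSPO and HSD3B had no circRNA. All of them, STAR included, had a mean of 1 to 10 FPKM over the 6 libraries. Among genes in that range 14.2% (663 of 4685) had a circRNA. At 50 to 150 FPKM, the range of SCARB1 and FDXR, 40.5% (461 of 1139) had one.

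**Figure D4:**
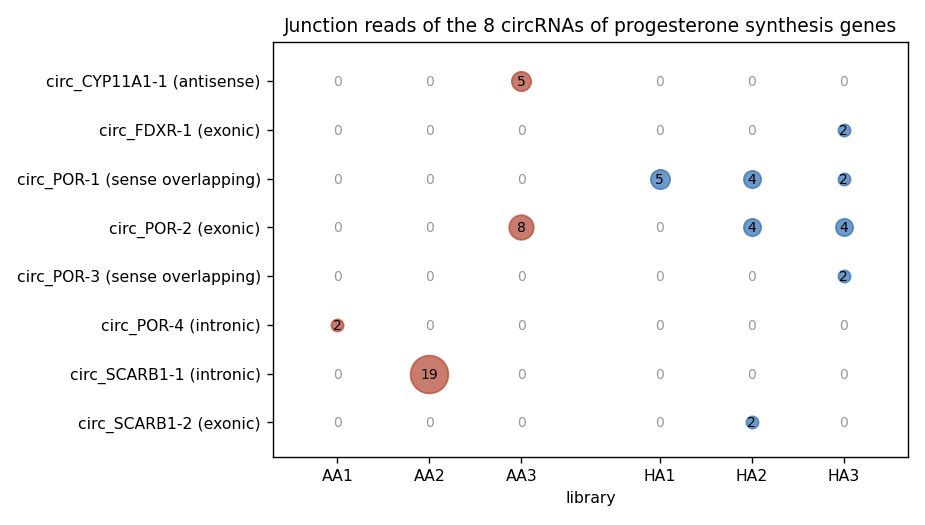
Back-splice junction reads (number per library) of the 8 circRNAs of POR, SCARB1, FDXR and CYP11A1, with AA libraries left of HA libraries; larger circles are more reads, and grey figures mark 0 reads. circ_POR-1 has 5, 4 and 2 reads in the HA libraries and is listed at 0 in the AA libraries, whereas the 19 reads of circ_SCARB1-1 all lie in AA library 2.

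Around these genes, 6 lists of neighbouring functions held 80 gene names, of which 61 lines were tested. None passed an adjusted p of 0.05 (limma). At an unadjusted p of at most 0.05, 6 were higher and 14 lower in AA, to be read beside 9.48% and 6.14% of all genes. The list of steroid conversion after progesterone had 5 of 13 lower and 0 higher, with a median log2 difference of -0.37. Besides CYP19A1 these were 2 lines of AKR1C4, a steroid reductase (-1.56, limma adjusted p = 0.0594, and -0.73), CYB5A, a cytochrome that aids steroid-cleaving P450 (-1.39, adjusted p = 0.0719), and HSD17B4, a peroxisomal enzyme of oestradiol oxidation (-0.46). HSD17B1, which makes oestradiol, was at 593, 266 and 217 FPKM in AA and at 269, 264 and 583 FPKM in HA, with 1 high library in each group.

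The list of cholesterol supply had 4 of 13 lines higher and 1 lower, with a median of 0.08. The higher lines belonged to APOE, NPC2 and ABCA1. APOE, a lipoprotein component secreted in quantity by macrophages, was at 47.1, 71.7 and 23.9 FPKM in AA and 9.84, 8.82 and 11.8 FPKM in HA (95% interval of the log2 difference 1.17 to 2.83, limma adjusted p = 0.0594). NPC2, which carries cholesterol out of lysosomes, differed by 1.59 (adjusted p = 0.116), and the 2 lines of ABCA1 by 1.97 and 1.56. NPC1, the lysosomal partner of NPC2, differed by 0.08 (adjusted p = 0.889), and LIPA, the lysosomal lipase, by 0.53 (adjusted p = 0.381). The 1 lower gene was STARD4, a cytosolic sterol carrier related to STAR, at 8.33, 3.81 and 9.56 FPKM in AA, against 19.5, 22.5 and 13.5 FPKM in HA (log2 difference -1.29, adjusted p = 0.132). The macrophage and leukocyte, endothelial and fibroblast and smooth muscle markers all had higher sums in AA than in HA libraries, and their part in the higher genes was not tested.

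The list of gonadotropin and cAMP signalling had 2 of 11 higher and 1 lower, with a median of 0.05. FSHR was at 92.0, 88.3 and 90.0 FPKM in AA, against 51.0, 33.3 and 28.4 FPKM in HA (log2 difference 1.28, limma adjusted p = 0.0594). FSHR and LHCGR thus stood on opposite sides, each without overlap between the groups. The mitochondrial partners of side chain cleavage had 3 of 12 lower and 0 higher, with a median of -0.16, among them ME1, a supplier of NADPH in the cytosol (-1.02), and PRDX3, a mitochondrial peroxidase (-0.56). Transcription regulators had 2 of 8 lower (NR5A2 and GATA6) and 0 higher, with a median of -0.20. Progesterone receptors had 2 of 4 lower, PGRMC2 (-0.55) and PAQR7 (-0.96), and 0 higher, with a median of -0.30. FDX1L, listed under the older symbol of the ferredoxin FDX2 and not a substitute for FDX1, was at 37.6, 20.6 and 20.1 FPKM in AA and at 22.4, 19.7 and 32.4 FPKM in HA.

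CYP17A1, the androgen-making enzyme that defines theca cells, was at 0.106, 0 and 0.10 FPKM in AA and at 0.297, 1.38 and 0.191 FPKM in HA. It was near the floor in 5 libraries and highest in HA library 2, the library with the highest STAR. Every AA value was below every HA value, and at these levels CYP17A1 was not tested. By qRT-PCR the paper found CYP17A1 below its detection limit, and it describes theca contamination of the isolated cells as negligible. The paper also reports that nearly all isolated cells stained for FSHR. INSL3, another theca gene, was at 23.6, 11.3 and 11.6 FPKM in AA, against 26.7, 23.4 and 46.7 FPKM in HA. HA library 1, with the lowest STAR, thus did not have the lowest INSL3, and HA library 2 had the lowest INSL3 of the HA libraries. LHCGR, also on the theca list and given above, was lowest among HA libraries in HA library 1. TCF21, the remaining theca marker, was at 1.46, 0 and 0.581 FPKM in AA and at 2.72, 0 and 0.284 FPKM in HA. The part of theca cells in the STAR levels was not tested.

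**Figure D5:**
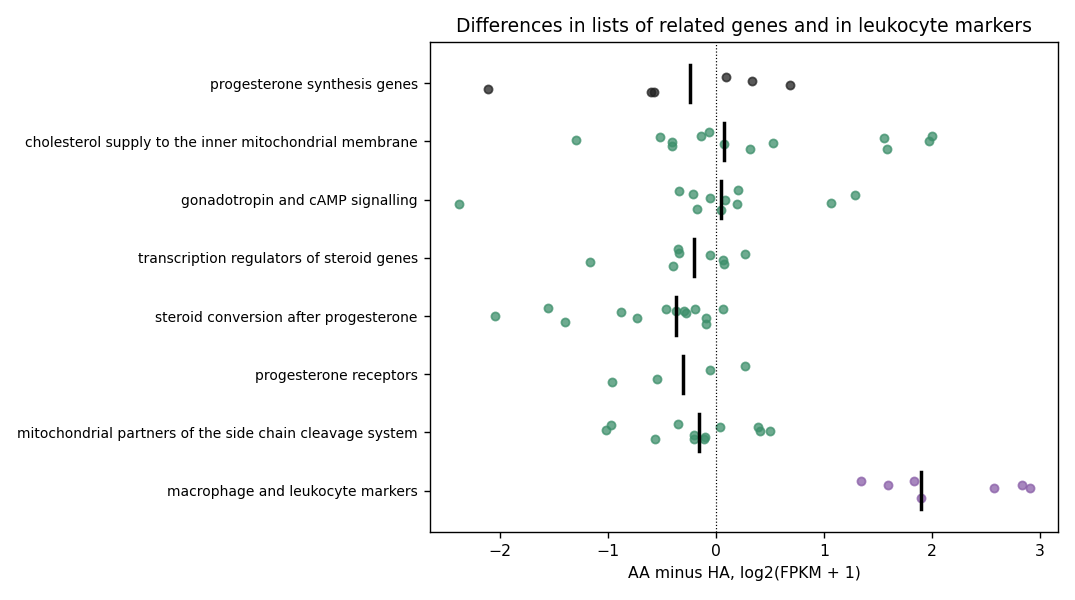
Log2 difference of FPKM + 1 (AA minus HA) for each tested gene line of the pathway genes, of the 6 neighbouring lists and of the macrophage and leukocyte markers, 1 row per list, with points as gene lines and a mark at the list's median; the vertical line is 0. The list of steroid conversion after progesterone has its median at -0.37, that of cholesterol supply at 0.08, the pathway genes at -0.24, and the leukocyte markers at 1.89.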

How the data were processed

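The authors sequenced rRNA-depleted total RNA of 6 pools and deposited FPKM values and scaled gene counts (a normalized signal, not raw reads) for genes on Sscrofa10.2. They also deposited counts of back-splice junction reads per circRNA and normalized circRNA values on a log2 scale. Genes were mapped and assembled with TopHat and Cufflinks (versions not given in the sources used here), and circRNAs were found with bowtie2 and find_circ. The kit marks strand, but whether gene quantification used it is not given in the sources used here. The depth before scaling is known only as a ratio between libraries. The authors' own fold changes and p-values were not used. Here log2(FPKM + 1) of genes that reached 1 FPKM in 3 or more libraries was compared with limma 3.58.1 (trend, R 4.3.3), with Benjamini-Hochberg adjustment over 11001 genes. Junction reads with at least 2 in at least 3 libraries (1014 circRNAs) were tested with edgeR 4.0.16 (quasi-likelihood), with library sizes in proportion to mapped reads taken from the deposited values; DESeq2 1.42.0 was an alternative. Models were tested on simulated data. Members and lists were chosen with earlier results of these data known. Genes named were the members with their circRNAs, the 5 nearest to STAR and to HSD3B, the list genes with the 4 largest changes among those passing the test (there were none) and NR5A2, FSHR, LHCGR, CYP17A1 and CYP19A1; 1 other gene is not reported here. APOE, NPC1, NPC2, LIPA, ABCA1, STARD4, CYB5A, AKR1C4, HSD17B4, HSD17B1, ME1, PRDX3, GATA6, PGRMC2, PAQR7, FDX1L, INSL3, TCF21, FOXL2, INHA, INHBA and GATM were chosen after their values were seen. AA and HA libraries with a shared number carry 1 date in their descriptions, which served as the block; the deviations of such pairs correlated at -0.29, 0.00 and -0.40. Gilts were slaughtered in batches by day, and follicles of each kind were divided at random into pools, of which 3 each were sequenced. Which animals gave follicles to which of these pools is not given in the sources used here, so p-values measure the spread between these pools. No sequences were used.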

Additional observations from a re-analysis of the deposited data

How the results depend on the processing

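No pathway gene and no circRNA of one passed its adjusted threshold under any alternative in which it was tested, which were 14 for SCARB1, STARD3, TSPO and FDXR, 13 for STAR and HSD3B, and 7 each for circ_POR-1 and circ_POR-2. circ_POR-1 was not tested without any 1 of the HA libraries, nor circ_POR-2 without AA library 3, HA library 2 or HA library 3, because too few libraries then held reads. Across them the log2 difference (AA minus HA) ran from -0.80 to -0.36 for SCARB1, -3.54 to -1.27 for STAR, -0.91 to -0.26 for FDXR, 0.12 to 0.64 for TSPO and 0.50 to 1.11 for HSD3B. STARD3 turned to -0.038 under quantile normalization, and leaving out 1 library moved it between -0.0069 and 0.29, below 0 without AA library 1 (-0.0069) or HA library 1 (-0.0057). circ_POR-2 turned to -0.92 with the replicate block, -0.48 under TMM scaling and -0.30 without HA library 1, and ran from -0.30 to 0.82 without AA library 1, AA library 2 or HA library 1. With dates as a replicate block, 13 genes were called in place of 0, and the block changed no call of a pathway gene (STAR -2.11, limma adjusted p = 0.444). Leaving out 1 library gave 0 to 97 called genes and 0 to 2 called circRNAs. The 1 circRNA called became 0 with the block, under TMM scaling and with no filter. At a minimum of 5 FPKM, STAR and HSD3B were not tested. The other 5 planned ratios need CYP11A1, FDX1 or POR mRNA and were not run. The limits are 3 pools per group, low HSD3B levels and at most 19 reads per circRNA.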

Other observations

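Relatives of the pathway genes were looked at after their values were known, and none passed the adjusted threshold (limma). SCARB2, a lysosomal membrane protein of the SCARB1 family, was at 356, 350 and 499 FPKM in AA and at 532, 401 and 389 FPKM in HA, well above SCARB1 in every library. STARD7, a carrier of phosphatidylcholine with a START domain, was at 46.7, 49.7 and 46.7 FPKM in AA and at 46.3, 39.7 and 43.2 FPKM in HA, with a log2 difference of 0.15 (95% confidence interval -0.20 to 0.49). In HA library 1, where STAR was at its lowest, STARD7 was thus at the level of the AA libraries. STARD3NL, which shares the membrane part of STARD3 and lacks its sterol-binding domain, was at 7.79, 7.64 and 22.4 FPKM in AA and at 18.2, 14.3 and 11.9 FPKM in HA. HSD3B7, an enzyme of bile acid synthesis, was at 2.17, 2.53 and 1.43 FPKM in AA and at 1.40, 1.83 and 1.97 FPKM in HA, so that the separation of groups seen for HSD3B was not present in HSD3B7 (log2 difference 0.14, interval -0.54 to 0.83). TSPO2, an erythroid relative of TSPO, was listed at 0 in all 3 AA libraries and at 1.19, 0 and 0.909 FPKM in HA.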
